A study of Mus musculus with 3 samples.

Results

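Levels of 10 genes of late neutrophil maturation were examined in multipotent progenitors (MPPs) of the bone marrow from mice labelled Mef2c-deficient and from control mice. The genes were Ltf, Camp, Ngp, Lcn2, S100a8, S100a9, Mmp8, Mmp9, Cd177 and Retnlg, taken by name from the array's own gene column, control spots left out. They were measured by 12 probes of 41174 on the array, which together name 27670 genes. Ltf and Mmp9 had 2 probes each, and 1 of the Mmp9 probes was printed in 10 spots. A filter on dim probes kept 11 of the 12, the repeated Mmp9 probe being left out, so all 10 genes were tested among 22222.

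Each of 3 two-colour Agilent arrays carried the cDNA of 1 Mef2c-deficient sample, labelled Cy3, and 1 control sample, labelled Cy5. As labelled, dye and genotype go together on every array, so a dye effect cannot be told apart from a genotype effect. The mutants were Mx1-Cre Mef2c f/f mice and the controls Mef2c f/f mice without the Cre, so the floxed alleles were common to both. All mice received poly(I:C), given as 250 µg in the labels, on 4 days, and marrow was taken 2 days after the last dose. The cDNA was amplified by PCR before labelling. Mx1-Cre is driven by an interferon-responsive promoter, so recombination is not limited to blood cells, and poly(I:C) itself sets off an interferon response in both groups. Per the labels, 15000 lineage-negative, c-kit-positive, Sca-1-positive cells were sorted per sample, the lineage antibodies including Gr-1 and Mac-1. The age of the mice is not given, nor whether each replicate is another animal, and the p-values therefore describe the scatter of these samples alone.

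Neutrophils mature in the marrow in steps, and each step fills granules with a set of proteins. Primary granule proteases are made first, by early myeloid progenitors, and proteins of the secondary and tertiary granules later, once the cell has left the progenitor pool. C/EBP epsilon and Gfi1 are transcription factors needed for the later step in mice. MPPs lie upstream of all these steps, and Gr-1 and Mac-1, which the sort selected against, are surface antigens of maturing neutrophils.

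The share of probes well above background ranged over the libraries from 73.4% to 80.4%, and 0 probes were saturated. The 5 progenitor markers Kit, Ly6a (which encodes Sca-1), Flt3, Cd34 and Cd48 were well above background in all 6 libraries. So was Itgam, which encodes a chain of Mac-1, with log2 levels of 10.83, 10.50 and 11.24 in the mutants and 12.11, 11.55 and 12.07 in the controls. Log2 ratios of Mef2c itself were 0.08, 0.10 and -0.96 over the arrays. The floxed part of the gene is not given, so its probe checks nothing. The ratios that the authors deposited have the other sign on array 2 than on arrays 1 and 3, although the dyes are labelled alike. Signed values follow the labels, and if array 2 was in fact a dye swap, its mutant and control levels would change places. Across genes the log2 ratios of the arrays correlated weakly (r = 0.306, 0.128 and 0.0396 between arrays 1 and 2, 1 and 3, and 2 and 3).

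The 10 genes were set apart by control library 1 more than by genotype. A level here is the log2 normalised intensity of a gene's brightest probe in a library, which compares libraries for 1 gene and not genes with each other. In control library 1, 9 of the 10 genes had their highest level of all 6 libraries, against 25.6% of all genes. That library was known to stand apart when these genes were set, so its counts here and below are description and no test. Between Mef2c-deficient and control MPPs, 0 of 10 genes and 0% of all genes had an adjusted p under 0.05 by limma. At an unadjusted p under 0.05 by limma, Camp, S100a9 and Retnlg were lower in the mutant, 3 of 10, against 5.32% of all genes, and 0 of 10 were higher, against 4.81%. For Retnlg this p is no support for a difference, since its probe was well above background in 1 of 3 mutant and 2 of 3 control libraries, and in neither on array 3. The median log2 ratio of the 10 genes was -1.30, with -2.62, 0.25 and -0.83 on arrays 1, 2 and 3, and that of all genes was -0.04. The mean ratio was below 0 for 8 of 10 genes, against 54.6% of all genes. In RNA from sorted pools, fewer cells of a type cannot be told apart from less RNA per cell.

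**Figure D1:**
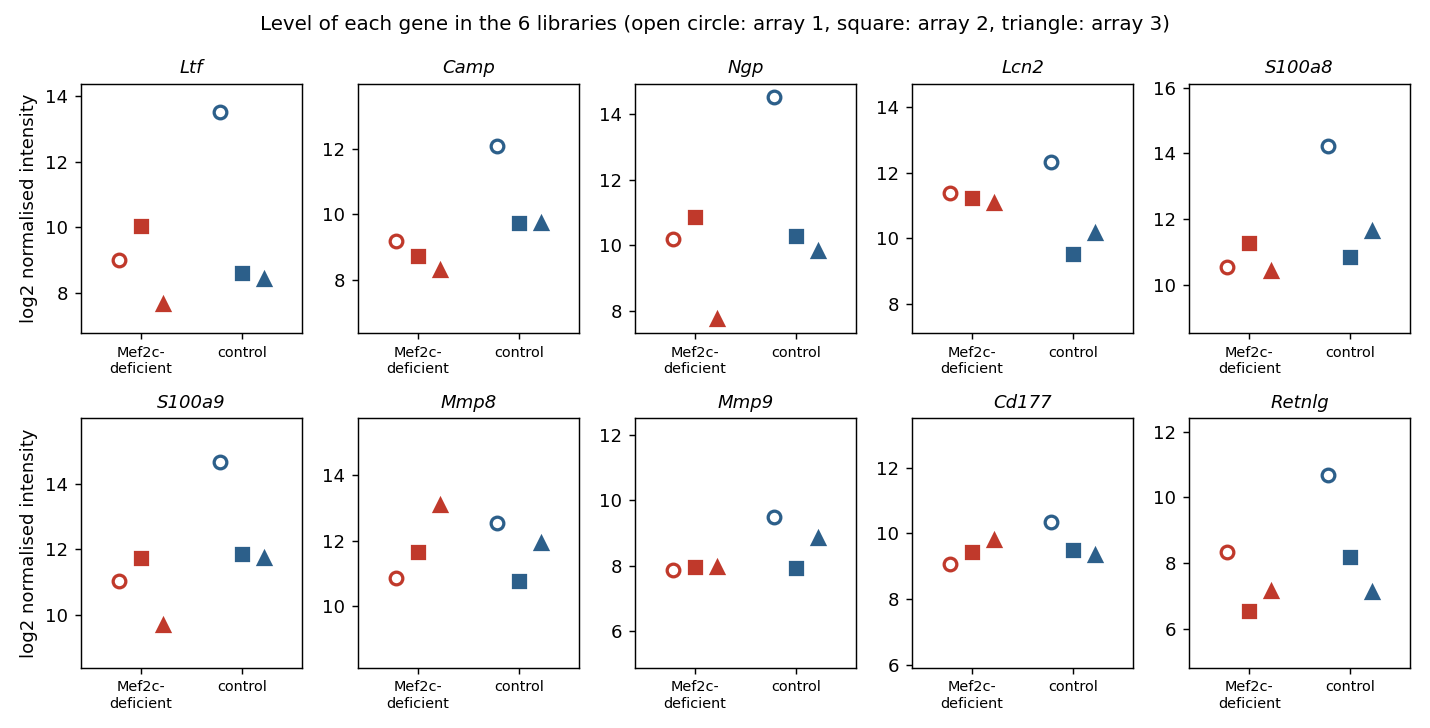
Log2 normalised intensity of each of the 10 genes in each library, with Mef2c-deficient libraries in red on the left of each panel and control libraries in blue on the right. Open circles are array 1, squares array 2 and triangles array 3, and all panels cover the same span of log2 units. The blue open circle, control library 1, is the highest point in every panel but that of Mmp8, where Mef2c-deficient library 3 is higher.

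The secondary granule genes Ltf, Camp and Ngp lie on mouse chromosome 9, and the calprotectin genes S100a8 and S100a9 beside each other on chromosome 3. In control library 1, these 5 and Lcn2 stood furthest above the other controls, among members with a probe well above background in all libraries. Lcn2 ranked above Camp there but is left out here. The upstream sequences of the 5 genes are shown. Each is the 250 bases before the RefSeq start site (build GRCm38.p6), 5′ to 3′ on the gene's strand, with matches to the C/EBP motif TTNNGNAA, on either strand, in capitals.
Ltf, chr9:111019042-111019291, plus strand: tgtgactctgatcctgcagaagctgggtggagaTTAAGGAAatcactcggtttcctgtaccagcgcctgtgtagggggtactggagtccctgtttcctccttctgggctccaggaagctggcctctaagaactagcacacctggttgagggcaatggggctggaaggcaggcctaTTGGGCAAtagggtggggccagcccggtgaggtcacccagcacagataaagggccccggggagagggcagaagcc
Camp, chr9:109849457-109849706, minus strand: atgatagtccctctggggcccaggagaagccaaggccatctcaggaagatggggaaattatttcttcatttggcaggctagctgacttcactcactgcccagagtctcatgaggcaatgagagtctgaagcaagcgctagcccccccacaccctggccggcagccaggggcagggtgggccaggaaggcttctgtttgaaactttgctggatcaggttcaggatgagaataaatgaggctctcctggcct
Ngp, chr9:110419558-110419807, plus strand: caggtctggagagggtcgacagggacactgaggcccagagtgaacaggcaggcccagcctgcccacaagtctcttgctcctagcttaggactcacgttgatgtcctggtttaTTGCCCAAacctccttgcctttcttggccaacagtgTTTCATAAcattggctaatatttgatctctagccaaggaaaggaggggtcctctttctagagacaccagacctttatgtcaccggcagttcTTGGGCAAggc
S100a8, chr3:90668821-90669070, plus strand: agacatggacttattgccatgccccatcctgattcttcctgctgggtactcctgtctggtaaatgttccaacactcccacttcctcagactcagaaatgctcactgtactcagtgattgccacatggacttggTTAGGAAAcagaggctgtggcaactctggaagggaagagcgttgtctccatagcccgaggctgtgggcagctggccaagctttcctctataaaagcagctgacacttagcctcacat
S100a9, chr3:90695722-90695971, minus strand: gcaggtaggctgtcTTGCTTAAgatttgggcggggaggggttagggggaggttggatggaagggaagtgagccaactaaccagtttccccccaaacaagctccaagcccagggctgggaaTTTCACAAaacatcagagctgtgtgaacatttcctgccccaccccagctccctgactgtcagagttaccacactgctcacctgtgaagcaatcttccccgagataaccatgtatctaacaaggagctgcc
These windows held 2 matches for Ltf, 0 for Camp, 3 for Ngp, 1 for S100a8 and 2 for S100a9. Of the 9 members with a RefSeq promoter here, 8 held a match, against 36.8% of 32851 promoter windows of the same length. The PU.1 motif GAGGAA, on either strand, was in 5 of 9 member windows and 23.3% of all. The AP-1 motif TGANTCA was in 0 of 9 and 6.75% of all, and the TATA box TATAAA, on either strand, in 2 of 9 and 12.4% of all. Matches of different motifs overlapped in 0 of the 9 windows. The promoter of Mmp9 is not shown.

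Ltf encodes lactoferrin, an iron-binding protein of the secondary granules. Its brighter probe had log2 levels of 9.01, 10.04 and 7.66 in mutant libraries 1, 2 and 3 and of 13.50, 8.61 and 8.43 in control libraries 1, 2 and 3. Control library 1 lay far above the rest, and the remaining control levels fell inside the mutant range. The log2 ratio was -1.28 ± 2.99 (SD, n = 3), with an adjusted p of 0.649 by limma. The dimmer Ltf probe was well above background in both libraries of arrays 1 and 2 and in neither of array 3. Its log2 ratios were -3.70, -0.29 and -0.24, against -4.49, 1.43 and -0.77 for the brighter probe, so the 2 probes shared the low ratio of array 1 and differed in sign on array 2. The file places the brighter probe over 3051 bases of the genome, as a probe across a splice junction would be, and the dimmer one over 60.

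Camp encodes cathelicidin, an antimicrobial peptide stored in secondary granules. It had log2 levels of 9.18, 8.74 and 8.29 in the mutants and of 12.07, 9.74 and 9.74 in the controls. The groups did not overlap, as was so for 2 of the 10 genes with the mutants lower, against 11.8% of all genes, while 0 of 10 had all mutants above all controls, against 7.21%. The log2 ratios were -2.89, -1.004 and -1.45, with a mean of -1.78 ± 0.98 (SD, n = 3). By limma the unadjusted p was 0.00407 and the adjusted p 0.461, so the difference did not pass. Without array 1 the mean was -1.23, with an adjusted p of 0.782 by limma. With array 2 turned, the mean was -1.11, with an unadjusted p of 0.160 by limma, and the groups overlapped.

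Ngp encodes neutrophilic granule protein, a relative of the cathelicidins and cystatins. As scanned, its spot had a brightness of 956, 1196 and 132 in mutant libraries 1, 2 and 3, in Cy3, and of 29937, 1814 and 1351 in the controls, in Cy5. The normalised log2 levels were 10.19, 10.86 and 7.74 in the mutants and 14.52, 10.30 and 9.83 in the controls. Control library 1 was the highest and mutant library 3 the lowest, and the other 4 lay within the space of about 1 log2 unit. The log2 ratio was -1.95 ± 2.45 (SD, n = 3), with an adjusted p of 0.5003 by limma.

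Lcn2 encodes lipocalin 2, which binds bacterial siderophores and is stored in secondary granules. Its log2 levels were 11.37, 11.23 and 11.06 in the mutants and 12.32, 9.51 and 10.16 in the controls. The mutants lay close together, below control library 1 and above control libraries 2 and 3. The log2 ratio was 0.56 ± 1.37 (SD, n = 3), with an adjusted p of 0.682 by limma. Without array 1 it was 1.31, with an unadjusted p of 0.00754 and an adjusted p of 0.782 by limma, and with array 2 turned it was -0.59.

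S100a8 and S100a9 encode the 2 chains of calprotectin, the main calcium- and zinc-binding protein of the neutrophil cytosol. S100a9 had log2 levels of 11.02, 11.72 and 9.70 in the mutants and of 14.67, 11.84 and 11.74 in the controls. The groups did not overlap, although the highest mutant and the lowest control were nearly level, and with array 2 turned they overlapped. Its log2 ratio was -1.94 ± 1.77 (SD, n = 3), with an unadjusted p of 0.0228 and an adjusted p of 0.468 by limma. S100a8 had levels of 10.54, 11.27 and 10.42 in the mutants and of 14.22, 10.83 and 11.64 in the controls. Here mutant library 2 lay above control library 2, so the groups overlapped. With array 2 turned they did not overlap. In that reading 2 of the 10 genes, S100a8 and Mmp9, had all mutants below all controls, as had 859 of 22196 genes in all. The log2 ratio of S100a8 was -1.48 ± 2.07 (SD, n = 3), with an adjusted p of 0.515 by limma. Of 10 other S100 genes measured, 1 had its highest level in control library 1, against 25.6% of all genes. At an unadjusted p under 0.05 by limma, 0 of these were lower and 0 higher.

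Mmp8 and Mmp9 encode proteases that cut the extracellular matrix, neutrophil collagenase of the secondary granules and gelatinase B of the tertiary granules. Mmp8 had log2 levels of 10.88, 11.66 and 13.07 in the mutants and of 12.55, 10.78 and 11.94 in the controls. It was the 1 gene of the 10 whose highest level was in a mutant library. Its log2 ratios were -1.67, 0.88 and 1.14, with a mean of 0.11 ± 1.55 (SD, n = 3) and an adjusted p of 0.949 by limma. Mmp9 had levels of 7.89, 7.98 and 7.95 in the mutants and of 9.499, 7.93 and 8.84 in the controls. The mutants were nearly equal, with control library 2 among them and the other controls above. The log2 ratio of Mmp9 was -0.82 ± 0.83 (SD, n = 3), with an adjusted p of 0.495 by limma. The repeated Mmp9 probe was well above background in control library 1 and in 0 of the other 5 libraries, and was not tested.

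Cd177, a surface glycoprotein of neutrophils, varied least among the levels of the 10 genes. It had log2 levels of 9.07, 9.43 and 9.80 in the mutants and of 10.34, 9.48 and 9.33 in the controls. The groups overlapped, and the log2 ratio was -0.28 ± 0.89 (SD, n = 3), with an adjusted p of 0.774 by limma. Retnlg encodes resistin-like gamma, a secreted protein of neutrophils. Its levels were 8.32, 6.54 and 7.15 in the mutants and 10.68, 8.18 and 7.10 in the controls. The probe of Retnlg passed background in 1 mutant and 2 control libraries, so its other levels are bounds. On these values the log2 ratio of Retnlg was -1.32 ± 1.23 (SD, n = 3), with an unadjusted p of 0.0300 and an adjusted p of 0.468 by limma.

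**Figure D2:**
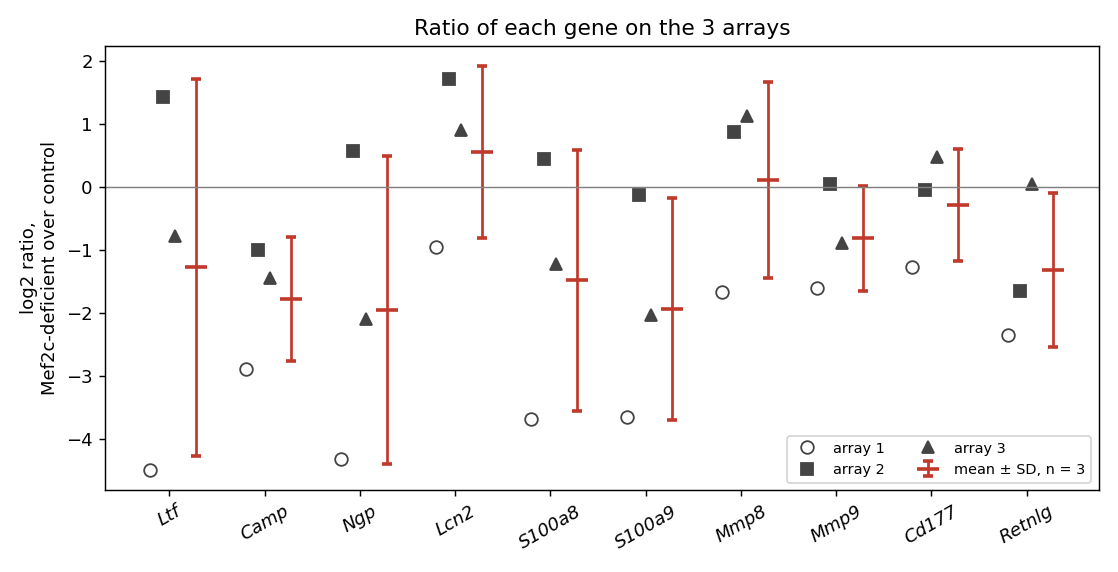
Log2 ratio of Mef2c-deficient over control for each gene on arrays 1, 2 and 3, with the mean and SD over the 3 arrays in red. The ratio of array 1 is below 0 for all 10 genes and is the lowest of the 3 for each, while over the 10 genes those of arrays 2 and 3 lie on both sides of 0.

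Set against the mean of control libraries 2 and 3, which carry the same dye as labelled, control library 1 was higher for all 10 genes. The difference was 4.98 on the log2 scale for Ltf, or 31.5-fold, and 4.45 for Ngp, or 21.9-fold. For Retnlg it was 3.03, with control library 3 not well above background. It was 2.99 for S100a8, 2.88 for S100a9, 2.48 for Lcn2 and 2.33 for Camp. These 7 of 10 genes were over 4-fold higher in control library 1, against 0.604% of all genes, and 9 of 10 were over 2-fold higher, against 4.21%. Mmp8 (1.19) and Mmp9 (1.12) lay between these folds, and Cd177 (0.93) under 2-fold. The median over the 10 genes was 2.68, and over all genes 0.04. In mutant library 1, on the same array, the median difference from the other mutants was 0.19. With array 2 turned, the median over the 10 genes was 2.80, and 6 of 10 genes were over 4-fold higher in control library 1, as were 135 of 22196 genes in all. With 1 library against 2 there is no test of this difference.

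The levels were not high in control library 1 for every gene of the neutrophil lineage. Of 18 other neutrophil granule and secreted proteins measured, 5 had their highest level there, against 25.6% of all genes. The median difference over the 18 was 0.30, and the differences ran from -0.28 for Cd63 to 2.01 for Chil3. Chil3 was thus over 4-fold higher there, and Wfdc21 (1.43) and Slpi (1.02) over 2-fold. Genes at the ends of these lists were named after their values were seen. Of 19 mature neutrophil surface and signalling genes, 7 had their highest level there, with a median difference of 0.30, and Itgam differed by 0.30. The differences ran from -1.03 for Padi4 to 4.05 for Trem1, with Il1b (1.57) and Mxd1 (1.22) also over 2-fold higher. Of 7 primary granule genes, 1 had its highest level there, with a median difference of 0.28. Of 9 granulocyte transcription factors listed, 8 had a probe by name, and Cebpe was not among the 8. Of these 8, 2 had their highest level there. Their median difference was 0.25, from -0.70 for Spi1 to 1.31 for Cebpd. Of 10 monocyte and macrophage markers, 2 had their highest level there, with a median difference of 0.05.

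Immediate early genes, which respond within minutes to stimulation, were also high in control library 1. Over 17 measured genes on a list of immediate early and heat shock genes, the median difference from the other controls was 3.23. Of these 17 genes, 16 had their highest level in control library 1, against 25.6% of all genes. The exception, named after its values were seen, was the heat shock gene Hspa1a, with log2 levels of 11.83, 13.83 and 10.25 in the mutants and 13.50, 11.72 and 10.68 in the controls. Fos was 12.04-fold, Egr1 31.0-fold and Atf3 54.5-fold higher there. The list's mean log2 level was 10.47, 11.51 and 11.13 in mutant libraries 1, 2 and 3 and 14.94, 12.02 and 11.09 in the controls, all 17 being well above background throughout. The mean level of the 10 late neutrophil genes was 9.75, 9.95 and 9.28 in the mutants and 12.44, 9.72 and 9.87 in the controls. The part of this shift in the late neutrophil result was not tested.

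**Figure D3:**
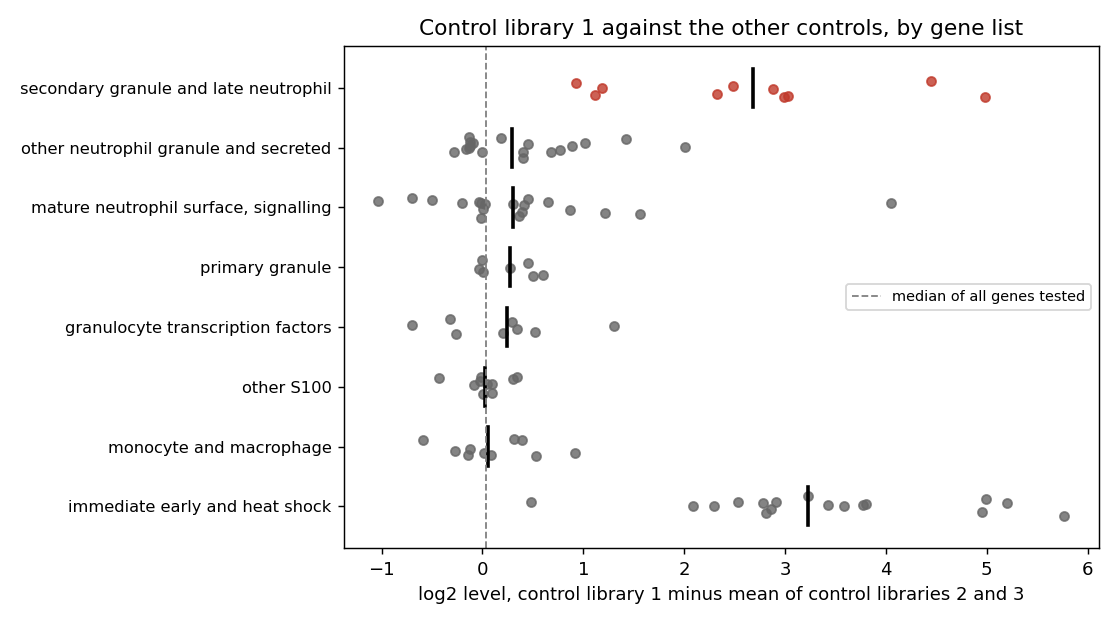
Difference in log2 level between control library 1 and the mean of control libraries 2 and 3, 1 point per measured gene, with gene lists down the page and a black bar at each list's median. The dashed line is the median over all genes tested. The medians of the 10 late neutrophil genes, in red, and of the immediate early and heat shock list lie furthest to the right of the lists drawn, at 2.68 and 3.23.

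The genotype comparison was also read without control library 1. With all of array 1 left out, the median log2 ratio of the 10 genes was -0.40, with 6 of 10 below 0, against 52.9% of all genes. Camp was then lower, and Lcn2 and Mmp8 higher, at an unadjusted p under 0.05 by limma. That is 1 of 10 lower, against 2.99% of all genes, and 2 of 10 higher, against 2.85%. With the mutant of array 1 kept and only its control left out, the mean level of the mutants minus that of the 2 remaining controls was -1.004 for Camp and -0.98 for S100a9. It was -0.47 for Ngp, -0.49 for S100a8, 0.38 for Ltf and 1.38 for Lcn2. The median of this difference was -0.38 over the 10 genes and -0.03 over all genes. Leaving out array 2 instead keeps control library 1, so its count does not describe the comparison without that library. There limma gave 6 of 10 genes a negative ratio with an unadjusted p below 0.05, against 4.02% of all genes. Of the 2 arrays kept, array 1 had the lower ratio for each of the 10 genes. For Ltf it was -4.49 on array 1 and -0.77 on array 3, and for S100a8 -3.68 and -1.22.

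Lower ratios on all 3 arrays were seen for 2 of the 10 genes, Camp and S100a9, against 20.3% of all genes, and higher ratios on all 3 for 0, against 15.2%. With array 2 turned, 4 of 10 were lower on all 3 arrays, against 9.46% of all genes. In that setting 4 of 10, Ltf, Ngp, S100a8 and S100a9, were lower at an unadjusted p under 0.05, against 1.39% of all genes, and 0 passed adjustment. The adjusted p by limma was 0.9998 for each of the 10.

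The direction of the primary granule genes, which come earlier in the same lineage, depended on how array 2 was read. As labelled, all 7 measured had a mean log2 ratio above 0, and 5 of 7 were higher in the mutant at an unadjusted p under 0.05 by limma, against 4.81% of all genes. With array 2 turned, 3 of 7 were above 0 and 4 below, between -0.18 and 0.23, and 0 had an unadjusted p under 0.05. Their median log2 ratio as labelled was 0.91, with 0.60, 1.26 and 0.62 on arrays 1, 2 and 3. Prtn3, the proteinase 3 gene, had 1.03 ± 0.29 as labelled (SD, n = 3) and 0.19 with array 2 turned. Elane, the neutrophil elastase gene, had 0.91 ± 0.40 as labelled (SD, n = 3) and 0.00296 with array 2 turned.

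Other genes of the lineage are given as labelled unless said otherwise. Gfi1 had a log2 ratio of 0.20 (adjusted p = 0.729 by limma), and Csf3r, the receptor gene of granulocyte colony-stimulating factor, 0.06. Of 18 other neutrophil granule and secreted proteins, at an unadjusted p under 0.05, 2 were higher, against 4.81% of all genes, and 1 was lower, against 5.32%. Pglyrp1, a peptidoglycan-binding protein of the granules, had 0.79 ± 0.35 (SD, n = 3) and, with array 2 turned, 0.25. Fcnb, ficolin B, had -0.86 ± 0.53 (SD, n = 3) and, with array 2 turned, -0.69. Among 19 mature neutrophil surface and signalling genes, 2 were higher and 1 lower by the same threshold. The lower one was Itgam, at -1.05 ± 0.23 (SD, n = 3) and, with array 2 turned, -0.35. By limma 0 genes of these lists passed adjustment in either reading.

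The genes whose levels over the 6 libraries ran most like the mean of the 10 were ranked by Pearson's r over 22186 other genes. The first 8 included Eid3 (r = 0.997), Mzf1 (r = 0.993), Olfr65 (r = 0.992) and 8430406H22Rik (r = 0.990), and each of the 8 had its highest level in control library 1. Eid3 had log2 levels of 9.75, 9.83 and 9.38 in the mutants and of 11.59, 9.75 and 9.68 in the controls. Pearson's r does not measure the size of a change. Control library 1 stood above the other controls by 1.87 for Eid3, 0.45 for Mzf1, 1.22 for Olfr65 and 1.43 for 8430406H22Rik. The median over the 10 late neutrophil genes was 2.68. Since these values rest on 6 libraries of which 1 stands apart, they describe these arrays only. Each of the 10 genes is itself part of that mean, so its own r is raised by construction. Among them r was 0.977 for S100a8 and 0.969 for Ltf, and lowest, at 0.27, for Mmp8.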

How the data were processed

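Expression was measured on 3 two-colour arrays. Agilent Feature Extraction 9.5.1.1, named in the deposited files, gave each spot a linear intensity in both dyes. Per the file headers, these files also carry flags and the scanner's log10 ratio, Cy5 on top. Separately, the authors deposited log2 ratio values per spot, with medians of -0.0148, 0.0129 and -0.00249 on arrays 1, 2 and 3. The submitters' processing notes name limma, and the normalization and centring are not given in the sources used here. These ratios correlated with the scanner's Cy5 over Cy3 at -0.947, 0.935 and -0.939, with filled rows matched to spots in order. The other flags, 0 or 1, are as deposited by the authors.

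Mean intensities were background-corrected with limma's normexp (offset 50) and normalized by loess within arrays, control spots at weight 0. Outlier spots were left out and spots of a probe averaged. A probe was kept if 1 of its channels passed background on 2 or more arrays (32909 of 41174), and the brightest stood for a gene. Gene names were updated through RefSeq accessions (22951 probes), symbols (6659) or synonyms (3109). Levels were also normalized between arrays (Aquantile). limma 3.58.1 (R 4.3.3) tested whether the mean log2 ratio, Cy3 over Cy5, differed from 0 for 22222 genes, with Benjamini-Hochberg adjustment. The number of arrays limits the precision. All arrays lay on 1 slide, so no slide block was fitted. On simulated ratios of 22222 genes for this comparison, limma called 0 of 67 genes altered 2-fold, 16 of 67 altered 4-fold, 51 of 66 altered 16-fold and 1 unaltered gene.

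The members, gene lists and tests were chosen with earlier results of these data known. The text names all 10 members, genes most like them in pattern, and up to 4 genes of a list by smallest p, with Cebpe, Gfi1, Csf3r, Mef2c, Fos, Egr1 and Atf3. Other genes were named after their values were seen. Alternatives tried were no background correction, processed signals, median centring, no filter, other probe rules, leaving out arrays, turning array 2 and the deposited ratios. For the last, the deposited ratios of array 2 were changed in sign to follow the labels. That alternative therefore does not read array 2 with the authors' own sign. Promoter sequences are from RefSeq (GRCm38.p6).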

Additional observations from a re-analysis of the deposited data

How the results depend on the processing

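Under 11 alternatives, 0 genes had an adjusted p under 0.05 by limma, with 643 to 2871 genes at an unadjusted p under 0.05, or 3007 probes where every kept probe was tested. Median centring shifted the median of all genes by -0.13. This centring gave 552 higher and 2319 lower genes at an unadjusted p under 0.05 by limma, against 1069 and 1182. In that setting 6 of the 10 genes were lower, against 10.4% of all genes. Leaving out an array moved the median log2 ratio of the 10 genes between -1.71 and -0.40, with 0 genes called each time. Signs turned for Ltf (0.33) and Cd177 (0.21) without array 1, for Lcn2 (-0.0247) and Mmp8 (-0.27) without array 2, for Mmp8 (-0.40) without array 3, and for Lcn2 (-0.59) and Mmp8 (-0.47) with array 2 turned. Leaving out 1 array at a time gave ranges of -2.63 to 0.33 for Ltf, -0.66 to 0.21 for Cd177, -0.0247 to 1.31 for Lcn2 and -0.40 to 1.01 for Mmp8. An alternative chosen after seeing the data, leaving out control library 1 alone, turned Ltf (0.38) and Cd177 (0.0283). The median difference of control library 1 was 2.56 with median centring, 2.80 with array 2 turned (added after the results were seen) and lay between 2.46 and 2.65 when control 2 or 3 was left out. The cause was not tested.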

Other observations

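Among the neutrophil lists, Trem1, an activating receptor of myeloid cells named after its values were seen, differed between libraries as widely as the late neutrophil genes. Its log2 levels were 10.39, 10.63 and 10.71 in the Mef2c-deficient libraries and 13.06, 7.91 and 10.11 in the control libraries, so control library 1 was the highest and control library 2 the lowest. Over 7 red cell genes measured, the median difference of control library 1 from the other controls was 0.06. Of these genes, 2 had their highest level in control library 1, against 25.6% of all genes. These were Hba-a1, an alpha globin, and Slc4a1, the red cell anion exchanger, with differences of 1.73 and 1.72 on the log2 scale, while Alas2, the heme synthesis enzyme of red cells named after its values were seen, was lowest there, with a difference of -1.98. The log2 ratio of Hba-a1 was -1.68 ± 1.03 (SD, n = 3) as labelled and 0.02 with array 2 turned, and that of Slc4a1 was -1.32 ± 0.87 (SD, n = 3) and -0.70. Neither passed adjustment by limma (adjusted p = 0.461 and 0.463 as labelled).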
